A study of Homo sapiens with 16 samples.

Results

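SUM159 is a line of human breast cancer cells of the triple-negative subtype. RNA-seq gene counts of 4 SUM159 libraries were compared here, 2 of untreated cells and 2 of cells given 2 µM palbociclib for 16 h, out of 16 libraries in the series. They were chosen by the cell line and treatment in their labels, and no measured value entered the choice. In the series, SUM159 and the lung cancer line A549 were each left untreated or were given palbociclib, 3 µM indisulam, or both drugs, and each group has 2 libraries. All SUM159 cells were grown in DMEM/F12 medium with serum, insulin and hydrocortisone, so the untreated cells had insulin and a glucocorticoid too. The study calls the duplicates technical replicates of 1 line, so every p-value below measures the spread between these libraries and not between independent cultures.

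Palbociclib inhibits CDK4 and CDK6, the kinases that cyclin D activates in G1. These kinases phosphorylate the retinoblastoma protein RB, which otherwise binds E2F transcription factors and keeps their target genes off. E2F targets include the enzymes that make and copy DNA, while many genes needed in G2 and mitosis are held off in resting cells by the DREAM complex, which contains the RB relatives p107 (RBL1) and p130 (RBL2). The comparison addresses what blocking CDK4/6 did to gene expression in a line of a breast cancer subtype that lacks the hormone receptors.

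The line's markers were checked first. The mesenchymal genes VIM (vimentin), at 4141 and 3964 CPM (counts of a gene per library size, with library sizes scaled by TMM) in the untreated libraries, CD44, at 1067 and 1064 CPM, and CAV1, at 1569.6 and 1613 CPM, were high. ESR1, the oestrogen receptor, was at 0.386 and 0.431 CPM and PGR, the progesterone receptor, had 0 counts in both untreated libraries. GATA3, a luminal factor, was at 4.96 and 5.600 CPM and ERBB2 (HER2) at 98.3 and 101 CPM. The 8 alveolar lung markers summed to between 0.622 and 1.199 CPM in the 4 libraries. Of the blood and endothelial markers, CD3E and HBB were under 0.1 CPM in each library, whereas PECAM1 was at 19.5 and 17.4 CPM without the drug and PTPRC at 4.497 and 4.53 CPM with it. The blood and endothelial markers summed to 25.1 and 22.8 CPM untreated and 28.6 and 30.3 CPM with palbociclib. CDKN2A and CDKN2B, which encode the CDK4/6 inhibitors p16 and p15, were near 0: CDKN2A was at 0.0482 and 0.0479 CPM untreated and 0 and 0.0294 CPM with palbociclib, and the highest library of CDKN2B was at 0.150 CPM. The study, however, reports more p16 protein in treated SUM159 by Western blot, after a longer treatment at other doses. It names A549 as the line without p16. The RNA here and that protein result thus differ, and the reason was not tested.

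Depth moved with the treatment. The untreated libraries held 21994527 and 21926985 gene counts and the palbociclib libraries 26156417 and 33310006, so 3 counts in a library corresponded to between 0.0901 and 0.137 CPM. The share of counts in long noncoding RNAs (lncRNAs) was 0.757% and 0.741% untreated and 1.00% and 1.05% with palbociclib. Reads in no feature made up 3.99% and 3.89% untreated and 4.96% and 5.45% with palbociclib. With every library thinned to the shallowest total, 22346 and 22215 genes were detected in untreated cells and 23464 and 23555 with palbociclib. The part of these measures in the results was not tested beyond the fit of the thinned libraries, which made 8524 calls.

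Of 16080 genes tested, 8761 changed with palbociclib at an adjusted p under 0.05 (edgeR quasi-likelihood test with Benjamini-Hochberg adjustment over all genes), or 54.5%. Calls were split into 4101 genes that were higher (25.5%) and 4660 that were lower (29.0%). The counts of each gene group below are to be read beside these shares. Scaling by total counts in place of TMM shifted the median log2 change of all genes upward by 0.11 and gave 5548 higher and 3331 lower, so the split depended on the scaling and small changes are read relative to that shift. At a size of at least 1 on the log2 scale, a doubling or more, the order turned. There were 900 genes that rose (5.6% of all tested) and 337 that fell (2.1%).

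Direction followed expression level. Among 2960 genes with a mean under 1 CPM over the 4 libraries, 492 were higher and 75 lower. Among 5453 genes between 20 and 100 CPM, 1295 were higher and 2430 lower, and above 100 CPM the counts were 427 and 1390 of 2357. The plot of change against level shows large increases mostly at the left and large decreases mostly further right. Of the 900 large increases, 433 had a mean under 1 CPM and 297 a mean between 1 and 5 CPM. At a mean of at least 5 CPM, 170 genes rose and 245 fell by at least 1. The filter kept a gene that reached its minimum in as few as 2 of the 8 SUM159 libraries. A gene near 0 untreated could thus enter through treated libraries, which limits what the split at low levels shows. With at least 10 counts in every library, 13684 genes were tested, 4080 higher and 4212 lower.

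**Figure D1:**
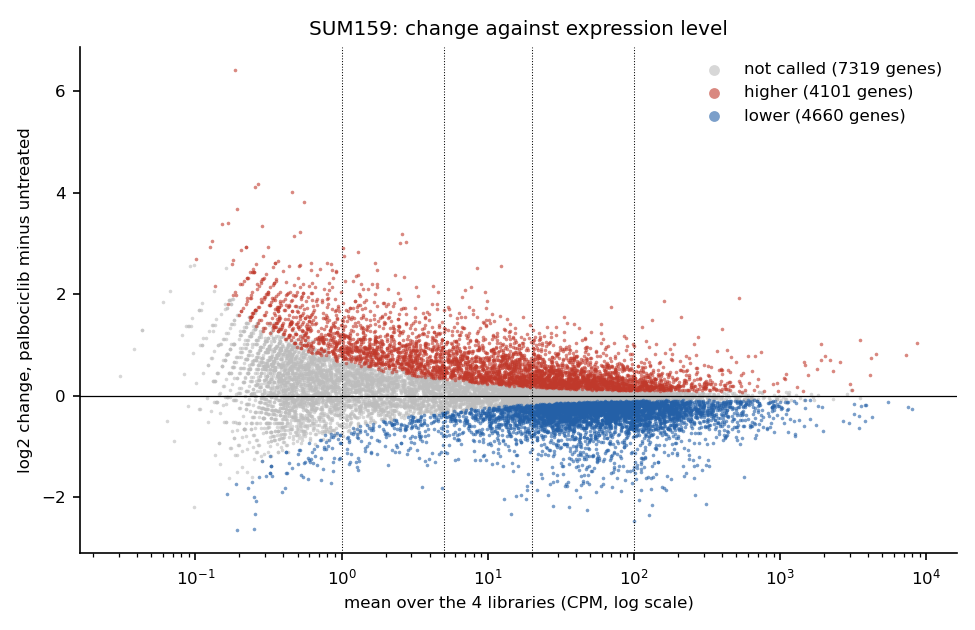
Log2 change with palbociclib (vertical axis) against the mean CPM of the 4 SUM159 libraries (horizontal axis, log scale), 1 point per gene tested. Red points are the 4101 genes called higher, blue the 4660 called lower and grey the rest, and dotted lines mark 1, 5, 20 and 100 CPM. Of the 337 blue points past -1, 245 lie above 5 CPM.

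The cyclin D, CDK4/6 and RB genes, which sit at the drug's target, moved in both directions. Of 13 tested genes of this group, 3 rose and 8 fell, with a median log2 change of -0.23 against 0.02 over all genes. With total-count scaling 3 rose and 5 fell, with a median of -0.12. CCND1 (cyclin D1, chr11:69641156-69654474 on GRCh38), the partner that activates CDK4/6, was at 471 and 456 CPM untreated and 615 and 614 CPM with palbociclib, a log2 change of 0.41 ± 0.03 (SE, 2 libraries a group). CCND2 (cyclin D2) rose from 0.627 and 0.431 CPM to 1.69 and 1.83 CPM. The palbociclib libraries of both cyclins lay above both untreated libraries.

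CDK4 itself fell from 197 and 211 CPM to 132 and 129 CPM (log2 -0.64 ± 0.04). CDK6 was 116 and 129.9 CPM untreated and 99.7 and 116 CPM with palbociclib, and here the groups overlapped. Its change of -0.18 passed the test at an adjusted p of 0.022 (edgeR) but not with total-count scaling, nor in 2 of the 4 fits that left out a library. RB1, at chr13:48303744-48599436, encodes RB and fell from 116 and 120.1 CPM to 77.2 and 73.6 CPM. RBL1 (p107) fell from 59.4 and 60.2 CPM to 22.7 and 22.8 CPM, whereas RBL2 (p130) rose from 63.6 and 64.3 CPM to 78.1 and 76.7 CPM.

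The CDK inhibitor genes were lower where they passed the test. CDKN2C (p18), an inhibitor of CDK4/6, was 47.9 and 49.3 CPM without and 25.1 and 22.8 CPM with palbociclib (log2 -1.02 ± 0.06). CDKN1A (p21), a p53 target that inhibits CDK2, fell from 41.2 and 39.4 CPM to 33.8 and 34.8 CPM (log2 -0.23), a call lost with total-count scaling. CDKN1B (p27) fell from 16.2 and 15.6 CPM to 10.9 and 12.2 CPM.

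Of 10 E2F and DP transcription factor genes, 7 fell and 1 rose (median -0.55). The activator E2F1 (chr20:33675477-33686385) dropped from 46.9 and 46.6 CPM to 16.9 and 18.6 CPM and E2F2 from 29.4 and 29.2 CPM to 6.82 and 7.48 CPM. E2F8, one of the atypical repressors, fell from 21.6 and 19.7 CPM to 4.95 and 5.15 CPM, while the other, E2F7, had a log2 change of -0.70. E2F5 (log2 0.06) and E2F6 (log2 -0.22) did not pass the test. TFDP2, a dimer partner, was the member that rose, from 19.95 and 20.2 CPM to 23.1 and 22.2 CPM, but its call was lost with DESeq2, with thinned libraries and without 3 of the 4 libraries in turn.

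The promoters of some of these genes are shown because 2 short elements bind the complexes described above. E2F factors bind sites such as TTTCGCGC and TTTGGCGC, and DREAM binds the CHR element, TTTGAA or TTCGAA. Both strands were searched, and the CHR letters differ from the E2F letters, so no single match counts for both, although matches may overlap by a few letters. The stretches lie upstream of the RefSeq start site on GRCh38.p14, outside the transcribed gene, and capitals mark the matches.
E2F1, chr20:33686386-33686425, minus strand: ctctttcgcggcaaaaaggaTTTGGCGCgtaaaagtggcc
E2F2, chr1:23531248-23531295, minus strand: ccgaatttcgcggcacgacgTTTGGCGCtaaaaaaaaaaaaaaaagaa
RBL1, chr20:37095998-37096043, minus strand: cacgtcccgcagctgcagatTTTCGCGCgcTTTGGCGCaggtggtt
MKI67, chr10:128126427-128126490, minus strand: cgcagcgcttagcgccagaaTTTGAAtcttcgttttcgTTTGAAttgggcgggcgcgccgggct
PLK1, chr16:23678840-23678885, plus strand: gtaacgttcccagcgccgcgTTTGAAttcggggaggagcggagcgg
CCNB2, chr15:59105097-59105142, plus strand: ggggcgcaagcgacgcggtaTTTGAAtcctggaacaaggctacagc
CENPA, chr2:26786018-26786055, plus strand: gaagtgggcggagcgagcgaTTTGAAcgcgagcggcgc
KIF15, chr3:44761731-44761784, plus strand: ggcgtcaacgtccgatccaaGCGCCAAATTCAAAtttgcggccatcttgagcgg
Each stretch was cut around its matches, and the genes shown all fell, so the presence of a match here was set by the choice. CHR letters also stood in windows of genes that rose, such as FMNL1-DT (log2 1.71) and IL1B (log2 2.22). The E2F1, E2F2 and RBL1 stretches held E2F letters, with 2 matches in RBL1. Those of the proliferation marker MKI67, of PLK1, CCNB2 and CENPA held CHR letters, with 2 matches in MKI67. The mitotic kinesin gene KIF15 held both side by side, on the opposite strand.

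Across protein-coding genes with a RefSeq window of 250 bases before to 50 after the start, the E2F letters were in the windows of 31 of 235 genes that fell by at least 1 (13.2%). The share was 3.33% of 3483 genes that fell by less, 1.83% of 4203 genes not called and 0.484% of 413 genes that rose by at least 1. CHR letters were in 39.6% of the genes that fell by at least 1, in 15.7% of those that fell by less, in 15.8% of those not called and in 14.8% of those that rose by at least 1. Of all 35116 windows, 1.15% held the E2F letters and 16.4% the CHR letters. The short CHR letters were thus common everywhere. These shares are a description of letters in a window and were not tested.

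The kinases and cyclins that act after CDK4/6 fell together, with 1 exception. Of 17 genes for CDK1, CDK2, cyclins A, B and E and their regulators, 16 fell, 11 of them by at least 1, and 0 rose (median -1.27). For this group and for the mitotic, replication, condensin and chromatin groups below, 0 members were higher by edgeR, by DESeq2 or at an unadjusted p under 0.05. CCNA2 (cyclin A2, chr4:121816444-121823883), the S and G2 phase partner of CDK2 and CDK1, was 174 and 175 CPM untreated and 43.1 and 41.05 CPM with palbociclib, and fell by 2.05 on the log2 scale (SE 0.05, adjusted p 2.6e-15, edgeR). CCNE2 (cyclin E2) fell from 28.7 and 29.1 CPM to 8.77 and 8.16 CPM. The exception was CCNE1 (cyclin E1), at 20.2 and 20.5 CPM untreated and 19.7 and 20.6 CPM with palbociclib, whose change of -0.02 ± 0.07 did not pass the test (adjusted p 0.87, edgeR) and whose groups overlapped. Its sign turned positive in 5 of the alternatives, so no direction is given.

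CDK2 fell from 103 and 95.1 CPM to 51.04 and 47.2 CPM. The mitotic pair CCNB1 and CDK1 fell from 431 and 427 CPM to 162 and 148 CPM and from 149.8 and 154 CPM to 59.7 and 53.7 CPM. CCNF, which encodes the F-box protein cyclin F, fell from 75.1 and 69.1 CPM to 24.2 and 24.5 CPM. The plot of CPM by library shows CDK2, CCNE2 and CCNA2 as separate pairs of points, while the pairs of CCNE1 coincide.

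**Figure D2:**
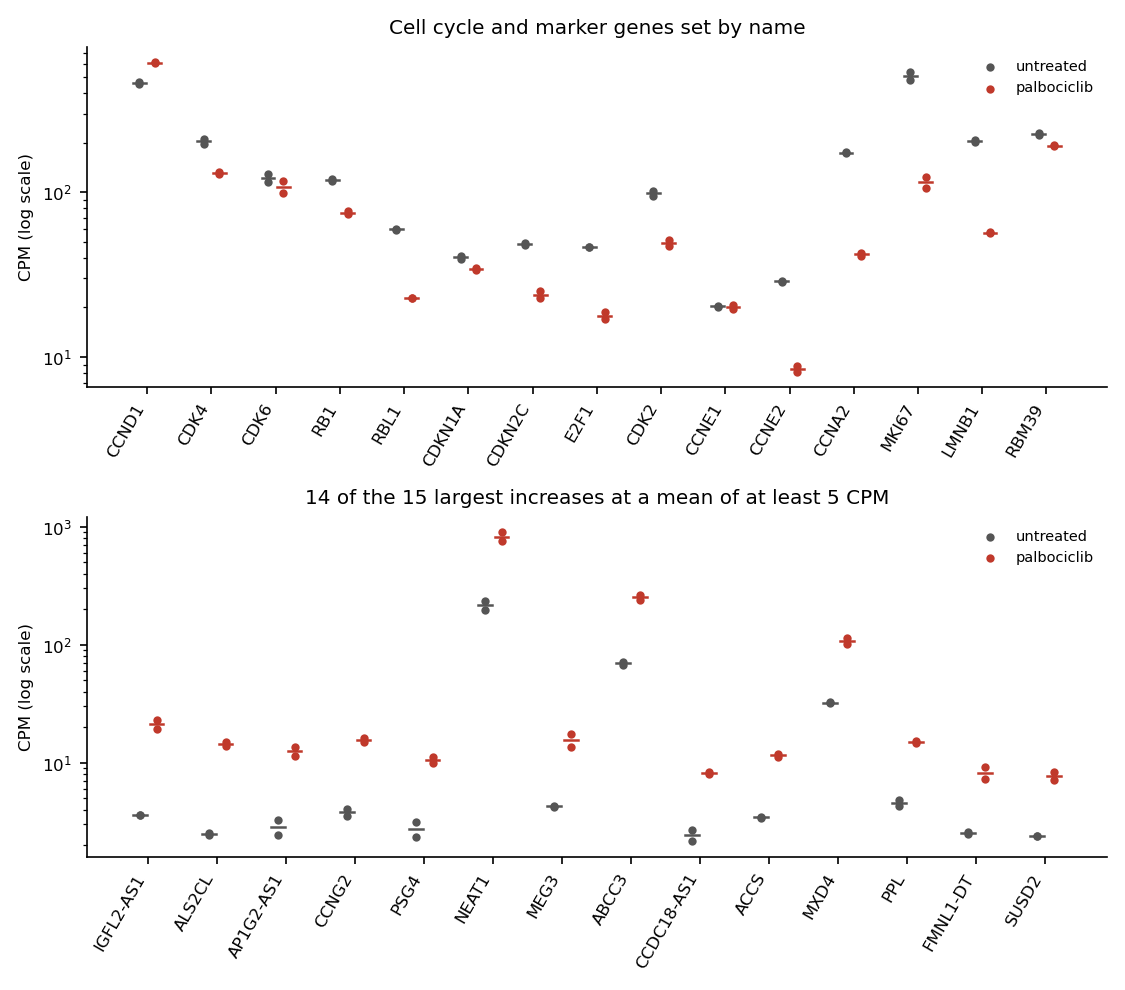
CPM (vertical axis, log scale) of each library for genes set by name (upper panel) and 14 of the 15 largest increases among genes averaging 5 CPM or more (lower panel), grey for the 2 untreated and red for the 2 palbociclib libraries, with a bar at each mean. CCND1 is the upper panel's gene with palbociclib above untreated (463 and 615 CPM on average), CCNE1 coincides and CDK6 overlaps.

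All 61 tested genes of the mitotic spindle, kinetochore and cytokinesis group fell, 53 of them by at least 1 (median -1.40). KIF20A, a kinesin of the cytokinetic midzone at chr5:138178719-138187723, had the largest fall among genes averaging 5 CPM or more. It was at 168 and 169 CPM untreated and 30.5 and 30.6 CPM with palbociclib, a log2 change of -2.46 ± 0.04. SPC25, a subunit of the NDC80 kinetochore complex, fell from 23.2 and 25.03 CPM to 4.98 and 4.65 CPM. CDCA3, a trigger of mitotic entry, fell from 60.2 and 56.7 CPM to 12.8 and 12.9 CPM. In GENCODE, exons of KIF20A overlap BRD8 and CDC23, and those of CDCA3 overlap GNB3. The strand setting of the counting is not given, so reads could be shared there.

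The mitotic kinases and checkpoint genes were lower too, with both palbociclib libraries under both untreated ones. PLK1 fell from 257 and 258 CPM to 71.2 and 71.3 CPM, and AURKB, the kinase of the chromosomal passenger complex, from 66.03 and 60.7 CPM to 16.4 and 18.5 CPM. BUB1, of the spindle checkpoint, went from 169.8 and 172 CPM to 66.8 and 62.7 CPM. MKI67, the proliferation antigen Ki-67, was 483 and 537 CPM untreated and 106 and 124.4 CPM with palbociclib (log2 -2.14 ± 0.07).

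DNA replication genes fell in 48 of 49 cases, 28 of them by at least 1, and ORC4 was the one that did not pass (log2 -0.12). The median was -1.15. GINS2, a subunit of the replicative helicase, fell from 45.4 and 45.7 CPM to 10.2 and 9.95 CPM. MCM7, of the helicase ring, fell from 414 and 414 CPM to 107 and 106 CPM, and PRIM1, the primase, from 27.4 and 25.9 CPM to 7.04 and 6.68 CPM. Within the list, the origin licensing factor CDT1 (log2 -1.96) and its partner CDC6 (log2 -0.83) fell, and the origin recognition genes ORC2, ORC3 and ORC5 fell by 0.31, 0.25 and 0.39.

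The enzymes that supply deoxynucleotides followed. Of 18 genes, 16 fell and 1 rose (median -0.62). TYMS, thymidylate synthase (chr18:657650-673580), was 209 and 212 CPM untreated and 42.8 and 40.1 CPM with palbociclib, a log2 change of -2.35 ± 0.04. RRM2, the S phase subunit of ribonucleotide reductase, fell from 217 and 219 CPM to 49.8 and 47.9 CPM. The p53-responsive subunit RRM2B (log2 -0.10) did not pass the test. TK2, the mitochondrial thymidine kinase, rose from 19.5 and 19.5 CPM to 29.3 and 25.8 CPM, whereas its cytosolic S phase counterpart TK1 fell from 144 and 145 CPM to 58.9 and 57.5 CPM.

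Homologous recombination, Fanconi anaemia and checkpoint genes fell in 30 of 34 cases and rose in 1 (median -0.85). The exonuclease EXO1 fell from 69.1 and 69.1 CPM to 21.5 and 20.6 CPM and BARD1, the partner of BRCA1, from 28.00 and 28.5 CPM to 9.78 and 9.51 CPM. The kinase gene ATM was the riser, 54.7 and 65.4 CPM against 66.2 and 77.3 CPM, with a call that was lost without the first untreated library and without the second palbociclib library. ATR, CHEK2 and FANCF, at log2 changes of -0.06, -0.01 and 0.12, did not pass.

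All 13 condensin and cohesin genes fell (median -0.96). NCAPH of condensin I fell from 94.5 and 93.8 CPM to 29.7 and 26.9 CPM. Chromatin copying and DNA methylation genes fell in 19 of 20 cases, 11 by at least 1. HMGB2, a chromatin architectural protein, fell from 175 and 177 CPM to 48.9 and 47.4 CPM, UHRF1, which directs maintenance methylation, from 206 and 199 CPM to 64.5 and 68.5 CPM, and CHAF1B, of chromatin assembly factor 1, from 65.3 and 64.5 CPM to 22.1 and 21.3 CPM. The histone chaperone ASF1B fell (log2 -1.22), while its paralogue ASF1A had a change of -0.0020 and did not pass.

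Of 13 genes of nuclear lamins and inner membrane partners, 10 fell and 2 rose (median -0.29, and -0.19 with total-count scaling). LMNB1, lamin B1 (chr5:126776623-126837020), whose loss is a common marker of senescent cells, was 209 and 201 CPM untreated and 56.4 and 57.7 CPM with palbociclib (log2 -1.85 ± 0.04, adjusted p 2.6e-15, edgeR). LMNB2 fell from 359.6 and 358 CPM to 146 and 152 CPM and TMPO, which encodes the LAP2 proteins, by 1.61 on the log2 scale. LMNA, the lamin A and C gene, fell by 0.29. The linker proteins SYNE1 and SYNE2 rose, by 0.35 and 0.44.

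**Figure D3:**
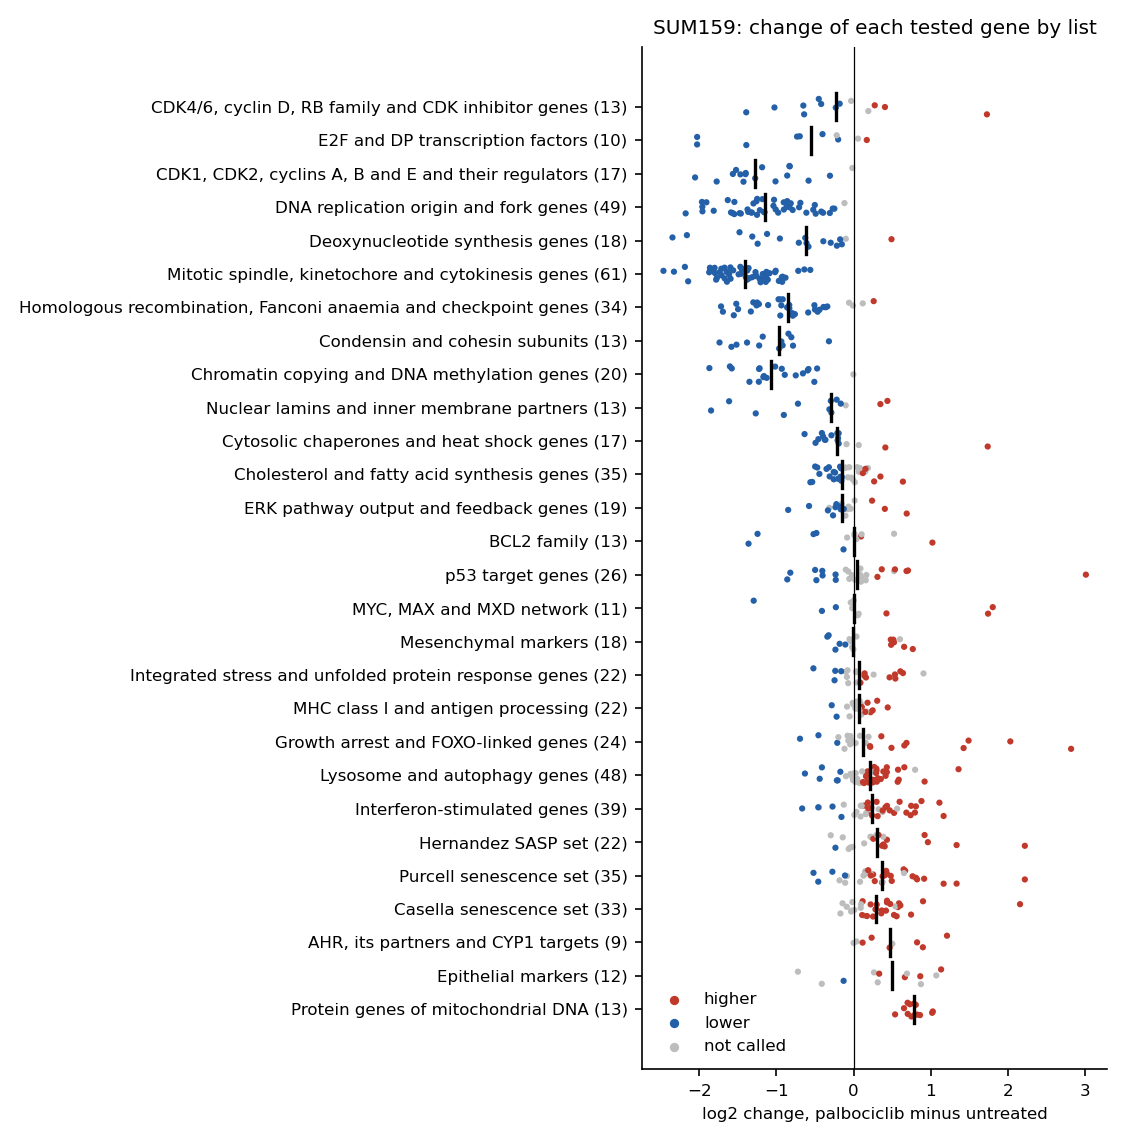
Log2 change with palbociclib (horizontal axis) of each tested gene in 28 gene lists (rows, number of genes tested in brackets), red if called higher, blue if called lower and grey if not called, with a black bar at each list's median and a small random vertical offset. The 61 mitotic genes are all blue and left of 0, while the medians of the arrest, lysosome, interferon and senescence lists lie between 0 and 0.5.

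The 3 other largest decreases outside these lists were FAM111B, a protease gene expressed in S phase, from 77.5 and 80.2 CPM to 16.8 and 16.5 CPM, WDR76, from 68.5 and 68.9 CPM to 18.02 and 16.4 CPM, and NEIL3, a DNA glycosylase for replication-associated lesions, from 23.9 and 25.99 CPM to 6.595 and 6.04 CPM. The adjusted p of the 15 largest decreases was at most 5.6e-11 (edgeR), and their palbociclib libraries all lay under both untreated libraries. The rule that chose these 15 required that separation.

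The largest increases were of another kind. Of the 15 largest at a mean of at least 5 CPM, 6 were lncRNAs. IGFL2-AS1 (chr19:46189029-46203160) led, at 3.61 and 3.59 CPM untreated and 19.3 and 22.9 CPM with palbociclib, a log2 change of 2.56 ± 0.12. ALS2CL, related to the guanine nucleotide exchange factor alsin, rose from 2.46 and 2.54 CPM to 13.7 and 14.9 CPM. The adjusted p of these 15 was at most 5.9e-08 (edgeR).

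NEAT1, the lncRNA that scaffolds nuclear paraspeckles (chr11:65422774-65445540), was the most abundant of them, at 236 and 196 CPM untreated and 753 and 894 CPM with palbociclib (log2 1.93 ± 0.12). MEG3, an imprinted lncRNA, rose from 4.34 and 4.21 CPM to 13.5 and 17.6 CPM. AP1G2-AS1, CCDC18-AS1 and FMNL1-DT rose too, by 2.14, 1.76 and 1.71, and each overlaps a coding gene. Over all 1952 lncRNAs tested, 497 were higher and 101 lower, against 3390 higher and 4485 lower of 13063 protein-coding genes. The overall contrast moved with expression level, since 1088 of the lncRNAs had a mean under 1 CPM and 619 between 1 and 5 CPM. Under 1 CPM 14.9% of lncRNAs and 20.7% of protein-coding genes were higher, and between 1 and 5 CPM 34.9% and 36.2%. Between 20 and 100 CPM, 28 of 54 lncRNAs were higher and 9 lower, against 1257 and 2415 of 5378 protein-coding genes.

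Among the coding genes, ABCC3, a pump for conjugated organic anions (chr17:50634777-50692253), rose from 71.1 and 67.3 CPM to 239.9 and 263 CPM (log2 1.86 ± 0.06). PPL, the cell junction protein periplakin, rose from 4.34 and 4.79 CPM to 14.8 and 15.3 CPM and SUSD2, a membrane protein, from 2.41 and 2.39 CPM to 7.08 and 8.304 CPM. ACCS, named for its likeness to plant aminocyclopropane carboxylate synthase, rose from 3.37 and 3.49 CPM to 11.3 and 11.8 CPM. PSG4, a pregnancy-specific glycoprotein whose paralogues are nearly identical, went from 3.13 and 2.35 CPM to 11.2 and 9.98 CPM, and its counts are uncertain for that reason.

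Growth arrest and FOXO-linked genes rose in 10 of 24 cases and fell in 3 (median 0.12, and 0.23 with total-count scaling). Of all genes tested, 25.5% rose and 29.0% fell. CCNG2, cyclin G2, an unconventional cyclin of resting cells (chr4:77157207-77433388), was 3.57 and 4.02 CPM untreated and 14.95 and 16.05 CPM with palbociclib, a log2 change of 2.03 ± 0.11. PIK3IP1, an inhibitor of PI3 kinase, rose from 0.289 and 0.335 CPM to 2.62 and 1.91 CPM, and SESN3, a FOXO target, from 5.16 and 4.98 CPM to 14.1 and 14.4 CPM. PDCD4 rose as well (log2 1.43). IRS2, KLF4 and KLF10 fell, by 0.69, 0.45 and 0.21. FOXO1 and FOXO3, which encode the factors themselves, changed by 0.03 and -0.08 and did not pass the test.

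In the MYC, MAX and MXD network, whose members compete for MAX, 3 of 11 genes rose and 3 fell, shares near the 25.5% and 29.0% of all genes tested. MXD4, a MAX partner that represses (chr4:2247432-2262109), rose from 31.9 and 32.5 CPM to 101 and 114 CPM (log2 1.74 ± 0.06), and MXI1 from 12.1 and 11.2 CPM to 16.4 and 15.05 CPM. MXD3, the family member linked to S phase, fell from 5.54 and 5.12 CPM to 1.799 and 2.47 CPM. MYC was 353 and 347 CPM untreated and 344 and 347 CPM with palbociclib and its change of -0.02 ± 0.03 did not pass the test.

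The p53 target genes had 6 of 26 higher and 8 lower, shares near the 25.5% and 29.0% of all genes tested. With total-count scaling they had 11 higher and 6 lower, and all genes tested had 5548 higher and 3331 lower. No direction is read for the group. TP53INP1, which promotes cell death and autophagy, rose from 0.434 and 0.6701 CPM to 4.68 and 4.33 CPM (log2 3.01 ± 0.24), and TP53I3 from 29.5 and 29.4 CPM to 50.02 and 46.3 CPM. MDM2, the p53 ubiquitin ligase, fell from 81.5 and 86.3 CPM to 64.5 and 62.3 CPM, and the exonuclease AEN from 54.1 and 55.1 CPM to 30.7 and 29.6 CPM. GDF15, at 1.11 and 1.01 CPM untreated and 1.01 and 1.12 CPM with palbociclib, did not pass.

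The BCL2 family had 2 of 13 genes higher and 5 lower, beside 25.5% and 29.0% of all genes tested. With total-count scaling it had 5 and 4. BCL2L11, the pro-apoptotic BIM, fell from 5.54 and 5.55 CPM to 1.84 and 2.41 CPM, and the anti-apoptotic BCL2 from 8.58 and 8.86 CPM to 4.497 and 3.004 CPM. BMF, a BH3-only protein, rose from 3.42 and 3.398 CPM to 6.595 and 7.21 CPM. BCL2L1, which encodes BCL-xL and is a frequent target in senescent cells, was 258 and 257 CPM untreated and 276 and 274 CPM with palbociclib (log2 0.10 ± 0.03, adjusted p 0.021, edgeR), a call lost without either untreated library.

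Interferon-stimulated genes were higher in 22 of 39 cases and lower in 4 (median 0.24), beside 25.5% and 29.0% of all genes tested. STAT2, the transducer of type I interferon signals, rose from 29.8 and 28.5 CPM to 59.7 and 66.2 CPM (log2 1.11 ± 0.10), UBA7, the activating enzyme for the ubiquitin-like ISG15, from 9.06 and 8.23 CPM to 18.9 and 19.9 CPM, and TRIM22 from 5.11 and 5.36 CPM to 10.01 and 9.33 CPM. OAS3, a sensor of double-stranded RNA, fell from 69.2 and 71.5 CPM to 44.9 and 43.8 CPM, unlike OAS1 and OAS2, which rose by 0.69 and 0.41. ISG15, a central member of the group, had a change of 0.09 and did not pass the test. MHC class I and antigen processing genes had 7 of 22 higher and 2 lower, and 16 and 1 with total-count scaling. HLA-E rose from 127 and 129.6 CPM to 153 and 151 CPM, while B2M (log2 0.04) did not pass. Near-identical HLA genes can share reads, so these values are uncertain.

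Lysosome and autophagy genes were higher in 29 of 48 cases and lower in 6 (median 0.21), beside 25.5% and 29.0% of all genes tested. WIPI1, which acts in autophagosome formation, rose from 14.99 and 13.7 CPM to 36.05 and 37.6 CPM (log2 1.36 ± 0.07), GABARAPL1 from 4.96 and 6.94 CPM to 11.9 and 10.7 CPM, and the lysosomal peptidase TPP1 from 42.8 and 42.5 CPM to 63.9 and 70.4 CPM. GLB1, which encodes the lysosomal β-galactosidase behind the usual senescence stain, rose from 67.96 and 65.2 CPM to 73.1 and 73.3 CPM (log2 0.14 ± 0.04). GUSB, the β-glucuronidase, fell from 43.4 and 44.6 CPM to 30.95 and 33.7 CPM.

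The 5 published senescence gene sets that the study used were counted in the same way. The study applied them by gene set enrichment to other RNA-seq samples. Its comparison in SUM159 used a longer treatment and other drug doses, so the counts here do not repeat it. Of 33 tested genes of the Casella set, 22 were higher and 0 lower by edgeR or DESeq2 (1 at an unadjusted p under 0.05, median 0.29), and of 35 of the Purcell set 21 were higher and 4 lower (median 0.37). The Hernandez set had 14 higher and 2 lower of 29, its set of secreted factors 10 and 1 of 22, and the Fridman set 26 and 12 of 65. With total-count scaling the Hernandez set had 21 higher and 2 lower and the Fridman set 37 and 6. Over all genes tested, 25.5% were higher and 29.0% lower. LINC02154 of the Casella set rose from 51.1 and 50.5 CPM to 86.6 and 84.01 CPM and DIO2, a thyroid hormone deiodinase, from 239 and 239.9 CPM to 365 and 365 CPM. Among secreted factors, CCL5 rose from 16.2 and 15.7 CPM to 31.1 and 29.5 CPM and IL6 from 3.76 and 2.87 CPM to 6.67 and 6.302 CPM. IL1A and IL1B were low, the latter at 0.145 and 0.0957 CPM untreated and 0.562 and 0.589 CPM with palbociclib. CXCL8 (log2 0.14), MMP1 (log2 -0.14) and MMP3 (log2 0.39), other well-known secreted factors, did not pass the test. CCND1 and CDKN1A are members of the Fridman set, and they moved in opposite directions.

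Epithelial and mesenchymal markers each moved in both directions. Of 12 epithelial genes tested, 4 rose and 1 fell. KRT7, a simple epithelial keratin, rose from 1994 and 1981 CPM to 3109.9 and 3194 CPM (log2 0.67 ± 0.03), and KRT8 by 0.33, whereas its partner KRT18 fell by 0.13 and lost that call with total-count scaling. CDH1, E-cadherin, was at 0.145 and 0.335 CPM untreated and 0.262 and 0.589 CPM with palbociclib and did not pass. Of 18 mesenchymal genes, 6 rose and 5 fell, shares near the 25.5% higher and 29.0% lower of all genes tested. The matrix genes COL5A1, SPARC and FN1 rose, COL5A1 from 379 and 391 CPM to 575 and 636 CPM, while ZEB1, a repressor of epithelial genes, fell from 62.4 and 66.6 CPM to 50.6 and 51.3 CPM and TWIST1 from 14.7 and 13.3 CPM to 10.98 and 11.3 CPM. AXL, a receptor tyrosine kinase, fell from 507 and 524 CPM to 442 and 434 CPM.

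Cytosolic chaperone and heat shock genes fell in 13 of 17 cases and rose in 2 (median -0.21), and in 9 and 3 with total-count scaling (median -0.10). HSP90AA1 was 4218 and 4253 CPM untreated and 2814 and 2641 CPM with palbociclib (log2 -0.63 ± 0.04), and HSPA8 fell from 4452 and 4379 CPM to 3225 and 3051 CPM. CRYAB, a small heat shock protein, rose from 0.5302 and 0.622 CPM to 2.29 and 1.65 CPM. Cytosolic ribosomal protein genes were lower in 53 of 83 cases (63.9%) and higher in 1, with a median of -0.13, close to the shift between scalings. Of all 2357 tested genes above 100 CPM, 59.0% were lower and 18.1% higher, with a median of -0.16. ERK pathway genes had 3 higher and 9 lower of 19, beside 25.5% and 29.0% of all genes tested, and 4 and 5 with total-count scaling. FOSL1, the AP-1 component FRA1, fell from 213 and 212 CPM to 116 and 120.3 CPM and ETV4 from 60.97 and 59.5 CPM to 39.1 and 41.5 CPM, while the ERK phosphatase gene DUSP6 rose from 17.6 and 17.4 CPM to 22.8 and 23.6 CPM.

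Cholesterol and fatty acid synthesis genes were lower in 18 of 35 cases and higher in 5, but 9 and 10 with total-count scaling. FASN, fatty acid synthase, fell from 767 and 829.8 CPM to 495 and 588 CPM. The aryl hydrocarbon receptor targets CYP1B1 and CYP1A1 rose, from 2.31 and 2.11 CPM to 4.95 and 5.27 CPM and from 2.12 and 2.49 CPM to 3.78 and 4.33 CPM. In that group 6 of 9 genes were higher and 0 lower by edgeR, by DESeq2 or at an unadjusted p under 0.05, and AHR itself, at 47.04 and 49.97 CPM untreated and 52.2 and 45.3 CPM with palbociclib, did not pass. Of 22 integrated stress and unfolded protein response genes, 9 were higher and 4 lower, beside 25.5% and 29.0% of all genes tested. The chaperone partner gene DNAJB9 rose from 14.6 and 15.9 CPM to 24.6 and 22.1 CPM, whereas ATF4 fell from 258 and 265 CPM to 222 and 221 CPM. RBM39, the target of the series' other drug, fell from 229 and 224 CPM to 193 and 191 CPM with palbociclib alone, by 0.24.

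All 13 protein genes of mitochondrial DNA were called higher (median 0.78), but the untreated libraries differed. MT-CO1, a subunit of cytochrome c oxidase, was at 7536 and 3829 CPM untreated and 10734 and 12439 CPM with palbociclib. The summed level was 33313 and 17415 CPM untreated and 41878 and 49263 CPM with palbociclib. The second untreated library was thus the low one. Without it the median was 0.37, without the first it was 1.33, and DESeq2 called 8 of the 13.

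Indisulam degrades the splicing factor RBM39 through the DCAF15 ubiquitin ligase. Its presence on both sides of a comparison gave a second contrast for palbociclib in SUM159, between 4 other libraries. They were in the same fit, so they shared its filter, scaling and estimate of spread with the calls above, and the 4 palbociclib and untreated libraries fitted alone gave 8361 calls. In combination against indisulam, 24.9% of the 16080 genes were called higher and 28.0% lower. Of the 4101 genes higher without indisulam, 2870 were higher with it and 20 lower. Of the 4660 lower genes, 3745 were lower and 32 higher. Of the 337 large decreases 288 were called lower and 1 higher, and of the 900 large increases 599 were called higher. Pearson's r over all genes was 0.766, a description across genes that share depth and expression level between comparisons.

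The falls of the cell cycle groups recurred in those libraries. The mitotic group fell in 61 of 61 cases there (median -1.69) and the replication group in 49 of 49 (median -1.22). KIF20A changed by -2.48 and CCNA2 by -2.57. Among the increases, ABCC3 changed by 1.81 and MXD4 by 1.55, close to their values without indisulam. NEAT1, at 1.93 without indisulam, was at 0.60 with it, and CCNG2 was at 2.03 and 1.14. The mitochondrial genes had a median of 0.11 there, and 1 of 13 was called lower. The differences between these 2 comparisons were not tested.

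**Figure D4:**
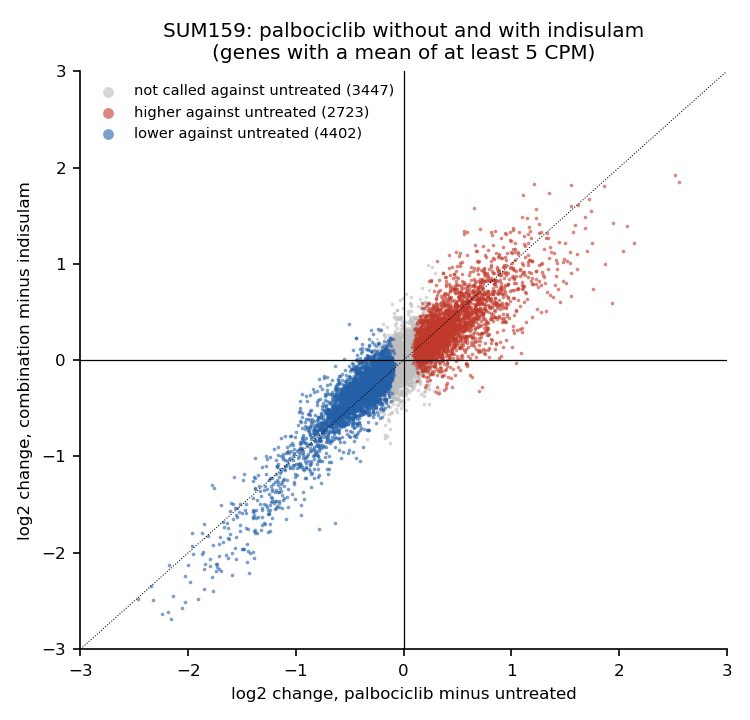
Log2 change with palbociclib in the absence of indisulam (horizontal axis) against its presence on both sides (vertical axis) for 10572 genes averaging 5 CPM or more, coloured by the call without indisulam, with a dotted line at equal change. Both ends of the cloud follow the line's direction, and points such as NEAT1 (1.93 without, 0.60 with indisulam) lie below it.

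Where SUM159 differed from A549 was tested as an interaction in a fit of all 16 libraries. The difference in response passed the test for 2274 of 17764 genes (12.8%). The change in SUM159 was above that in A549 for 1715 of them and below for 559. This split turned to 1034 and 1315 with median-of-ratios scaling, and leaving out any 1 of the 4 A549 libraries also gave more genes below than above, so no overall direction can be read. Of the 900 large increases of SUM159, 879 could be fitted in both lines, and 221 differed, all with SUM159 above. These genes had been chosen for being high in SUM159. With median-of-ratios scaling 184 differed with SUM159 above and 0 below.

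Among the 335 large decreases fitted in both lines, the change in A549 was the deeper one for 140 genes and that in SUM159 for 26. Under the other settings the 2 counts ranged from 87 to 135 and from 19 to 41. KIF20A changed by -2.39 in SUM159 and -3.32 in A549 in this joint fit, a difference of 0.93 ± 0.07 (adjusted p 1.6e-09, edgeR). CDCA3, CCNA2 and MKI67 also fell less in SUM159, by differences of 0.88, 0.57 and 0.63. The base excision gene NEIL3 fell more in SUM159, -1.91 against -1.21. For TYMS and E2F1 the difference did not pass the test.

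Of the 15 largest increases in SUM159, which were chosen for their size there, 11 differed, with SUM159 above in each. Genes outside that choice differed in both directions. The change in SUM159 was above that in A549 for SESN3, CYP1B1 and SYNE2, among others. It was below for DUSP6, with a difference of -0.51 (adjusted p 0.0033, edgeR), and BCL2L1, with -0.33 (adjusted p 0.0003, edgeR). ABCC3 rose by 1.94 in SUM159 and 0.65 in A549 (difference 1.29 ± 0.09, adjusted p 4.4e-10, edgeR). NEAT1 rose by 2.01 and 0.52, ALS2CL by 2.60 and 0.99, and CCNG2 by 2.11 and 1.04. MXD4 (A549 1.87) and CCND1 (A549 0.43) did not differ past the test's threshold, with differences of -0.05 ± 0.10 and 0.05 ± 0.05.

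**Figure D5:**
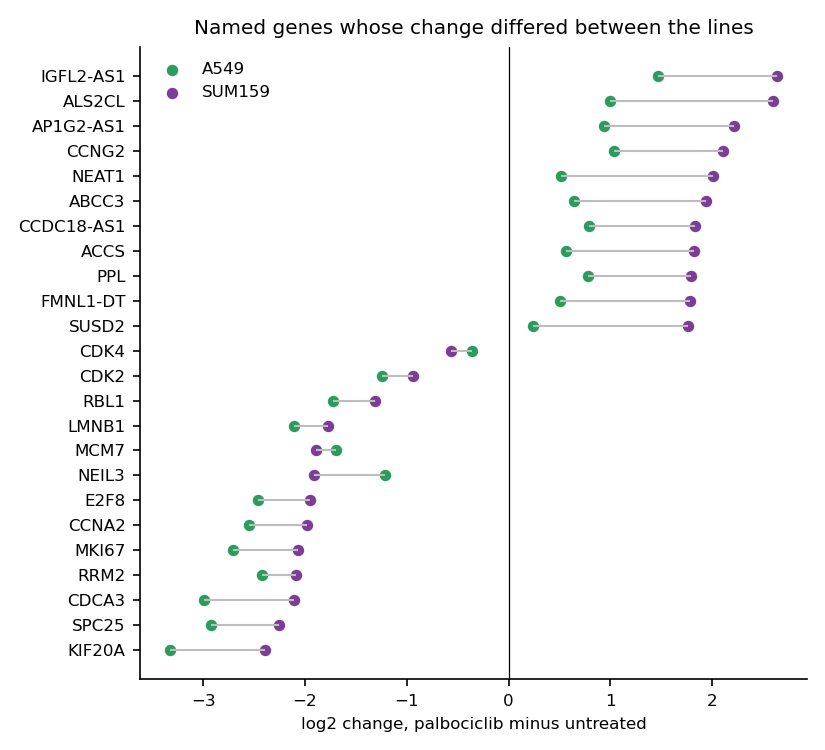
Log2 change with palbociclib (horizontal axis) in SUM159 (purple) and A549 (green), from the fit of all 16 libraries, for the 24 genes set by name or among the 15 largest changes whose difference passed the test. The plotted increases, chosen for their size in SUM159, lie further right there, and KIF20A, SPC25 and CDCA3 lie further left in A549.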

How the data were processed

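RNA was measured in duplicate libraries of each group by RNA-seq. Per the study's methods, the authors made stranded poly(A) libraries, sequenced paired 75-base reads, trimmed them with SeqPurge and aligned them to GRCh38 with HISAT2. The deposited values are raw counts per gene, 1 file per library, and the submitters' processing notes name HISAT2 2.2.1 and HTSeq. The annotation release and the strand setting of the counting are not given in the sources used here, so overlapping and antisense genes are uncertain. The rows of HTSeq that name no gene, of which reads in no feature were 3.89% to 5.45% in the 4 libraries, were left out. Identifiers were matched to GENCODE 44 (58207 of 58676).

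Counts of all 8 SUM159 libraries were fitted with edgeR 4.0.16 in R 4.3.3 (filterByExpr, TMM scaling, quasi-likelihood test, 1 coefficient per group). The line difference was an interaction in a fit of all 16 libraries. P-values were adjusted by Benjamini-Hochberg over all genes tested, with a threshold of 0.05. CPM used the TMM-scaled library sizes. The fit was also run on simulated counts in which only a small share of genes was changed. In the data 54.5% of genes were called, so that run does not bear on the choice of scaling. Alternatives were other scalings, filters, DESeq2 1.42.0, a replicate block, the 4 libraries alone, each library left out, and thinning to equal depth.

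The members and the 33 gene lists were chosen with earlier results of these data known. Genes named by rule were those set by name around CDK4/6 and RB, the 15 largest increases and 15 largest decreases with a mean of at least 5 CPM, a proper symbol and separate libraries, up to 3 called members per list in each direction with a mean of at least 1 CPM, and the 5 largest differences between the lines in each direction. Other members of the lists were named for their role, after their values were seen. Some genes that these rules or lists hold are not reported here. Promoter sequences are from RefSeq on GRCh38.p14.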

Additional observations from a re-analysis of the deposited data

Results flagged for a closer look

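The change with palbociclib differed between SUM159 and A549 for 2274 genes by the interaction test (edgeR). Values below are the log2 change in SUM159 minus that in A549, and a positive value for a gene that fell means a smaller fall in SUM159.

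Among the CDK and RB family genes set by name, CDK4 differed by -0.21, RBL1 by 0.41 and CDK2 by 0.31. CCNA2 differed by 0.57, MKI67 by 0.63 and LMNB1 by 0.34. The calls of CCNA2 and MKI67 held under every alternative run, with ranges of 0.33 to 0.60 and 0.34 to 0.74. CDK4 lost its call under 2 alternatives, LMNB1 under 3, RBL1 under 4 and CDK2 under 8.

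Of the 15 largest increases in SUM159, 11 differed. The differences were 1.17 for IGFL2-AS1, 1.604 for ALS2CL, 1.29 for AP1G2-AS1 and 1.07 for CCNG2. They were 1.49 for NEAT1, 1.29 for ABCC3, 1.04 for CCDC18-AS1 and 1.26 for ACCS. For PPL, FMNL1-DT and SUSD2 they were 1.02, 1.28 and 1.52. All 11 calls held under every alternative run, and the lowest value was 0.69, for CCDC18-AS1. These genes were chosen for being high in SUM159.

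Of the largest decreases, KIF20A differed by 0.93, CDCA3 by 0.88 and NEIL3 by -0.70, with calls that held under every alternative run. SPC25 (0.67), RRM2 (0.34), E2F8 (0.51) and MCM7 (-0.19) lost their calls under 5, 6, 10 and 2 alternatives.

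The 5 largest differences in each direction, among genes averaging 5 CPM or more in 1 of the lines, were mostly of genes nearly silent in the other. IFI44, an interferon-stimulated gene, differed by -1.57, with 17 and 67 counts in untreated and treated A549 against 3393 and 4099 in SUM159. These are raw counts summed over libraries of unequal depth. Scaled for depth, IFI44 fell in SUM159, from 83.1 and 79.9 CPM to 65.8 and 69.0 CPM (log2 -0.27 in the SUM159 fit). ASRGL1, an asparaginase-like enzyme, differed by -1.70, with 79 and 47 counts in SUM159. Both calls held under every alternative run. ADGRF5 (-3.27), with 1 and 21 counts in A549, and RAB38 (-1.97), with 12 and 5 counts in SUM159, lost theirs under 3 and 5 alternatives. For LINC03034 (4.55), KCNE3 (5.00), DRAIC (5.55) and ACSS3 (-4.89), 1 SUM159 group had 0 counts, and for HTRA3 (4.90) and SULF1 (5.04) the treated A549 libraries had 0. These 6 values depend on the prior count of the fit and are no bounds, and each call was lost under 2 to 11 alternatives.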

How the results depend on the processing

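The 8761 calls became 8755 with median-of-ratios scaling, 8879 with total-count scaling, 8489 with no filter, 8292 with at least 10 counts in every library, 7020 with DESeq2, 8361 with the 4 libraries alone and 8524 with thinned libraries. Leaving out 1 library gave 7249 to 8300 calls, and 6801 to 7486 of 8501 for palbociclib on top of indisulam. For the difference between lines, 2274 calls became 1546 to 3138. Asking for a log2 change of at least 1 left 1237 calls. Total-count scaling raised the share of higher calls from 46.8% to 62.5%. The log2 change of CCNE1, -0.02 in the main analysis, was 0.0899 with total-count scaling, 0.0099 with no filter, 0.0187 with at least 10 counts in every library and 0.0161 with thinned libraries, and lay between -0.0469 and 0.0208 when 1 library was left out. The cause was not tested.

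The replicate numbers were shared by the groups' labels only. Deviations of same-numbered libraries correlated at 0.004 (palbociclib and untreated) and -0.04 (combination and indisulam). With a replicate block the calls were 8537, 8211 and 2084 for the 3 comparisons, and of the 165 named genes TM7SF2 and RAB38 lost their calls for palbociclib against untreated, while LINC03034, SULF1 and RAB38 lost those of the line difference. The mitotic genes were lower in at least 60 of 61 cases under every alternative run. At the shallowest depth, 3 counts were 0.137 CPM, which limits what can be read for genes near that level.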
